A study of Mus musculus with 9 samples.

Results

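The genes described here handle pyruvate and the entry of glucose into glycolysis. They are the 10 genes Slc2a1, Pfkp, Ldha, Ldhb, Mpc1, Mpc2, Pdha1, Pdhb, Dlat and Dld, taken by name from the 28051 genes of the deposited matrices without a threshold on measured levels. Oocytes were from XX, XO and XY female mice whose strain the labels give as C57BL/6 (B6), and 18 days post partum (dpp) is given as the age of every sample. XY females and their XX littermates were sired by B6.Y TIR males, which carry a Y chromosome of TIR origin on the B6 background. XO females were sired by males that carry Paf, an X-linked mutation that had been moved from C3H/HeSnJ onto B6 by fewer backcrosses. Genotype and breeding scheme therefore cannot be told apart between XO oocytes and the other genotypes. Each genotype had 3 samples, and each sample was the RNA of 30 oocytes, of which 10 measured 50–55 μm and 20 measured 55–60 μm in diameter, isolated from dissociated ovaries. In pooled RNA, a smaller number of oocytes that express a gene and a lower amount in each oocyte cannot be told apart.

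Glucose enters cells through carriers such as the product of Slc2a1, and phosphofructokinase, of which Pfkp encodes the platelet isoform, catalyzes the committed step of glycolysis. Pyruvate is interconverted with lactate by lactate dehydrogenase, carried into mitochondria by a carrier of Mpc1 and Mpc2 subunits, and converted to acetyl-CoA by the pyruvate dehydrogenase complex. Growing mouse oocytes are known to use pyruvate, delivered to a large part by the surrounding granulosa cells, and to carry out little glycolysis themselves. Of the complex, Pdha1 and Pdhb encode the alpha and beta chains of the decarboxylase, Dlat the acetyltransferase and Dld the lipoamide dehydrogenase. Pdha1 lies on the X chromosome, and the other 9 genes lie on autosomes.

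Libraries held between 2130145 and 3157338 unique molecular identifiers (UMIs, each standing for 1 captured 5′ end) on genes. Levels are given as normalized CPM, which are UMIs scaled by the authors with ERCC spike-in RNAs, and fold changes are on the log2 scale from edgeR with the same scaling. All 12 oocyte markers examined were detected, and their summed level was 25096–26139 normalized CPM in the XX samples, 18367–36477 in the XO samples and 18909–23706 in the XY samples. The largest part came from Zp2, with means of 16469, 12001 and 13767 normalized CPM in XX, XO and XY oocytes. Single markers differed more, such as Zp1, with means of 69.8, 980 and 75.1 in that order. Of 13 granulosa cell markers, 9 had a row and summed to 48.0–66.7, 55.9–67.7 and 57.0–92.1 normalized CPM, in that order. The largest parts of that sum came from Nr5a2, Cyp19a1 and Kitl, whereas the granulosa cell genes Inha, Amhr2, Fst and Wt1 were at 0 or below 1 normalized CPM in each sample. Of 6 theca cell and 7 blood cell markers, 5 and 2 had a row, and they summed to at most 15.3 and 1.69 normalized CPM in any sample. XO1, the sample whose column carries no replicate number, differed from XO2 and XO3 in oocyte genes. Zp3, a zona pellucida gene of the oocyte, was at 12.4 normalized CPM in XO1 against 341 in XO2 and 570.2 in XO3, and calls that rest on XO samples are therefore also given without XO1, as well as without XO3 where that changes them. The paper names XX1, XO2 and XY1, not XO1, as less similar to their replicates. Over the 9 samples Zp3 varied with Ldhb (Pearson's r = 0.99) and Slc2a1 (0.91). Larger differences of such genes without XO1 are therefore no independent support.

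Pdha1 was the only one of the 10 genes that was higher in XX oocytes, both against XO and against XY oocytes. The paper, from the same samples, already names Pdha1 as an example of X-linked genes whose transcript levels depended on X dosage. Dlat, Slc2a1 and Pdhb were lower in XX than in XO oocytes, and the level of Dlat in XY oocytes was also below that in XO oocytes. Between XX and XY oocytes no gene other than Pdha1 was called. A gene was called when edgeR's quasi-likelihood test, which was two-sided, gave an unadjusted p below 0.05, the threshold used in the study. The filter on low counts kept 8 of the 10 genes, and Mpc2 and Ldha were not tested. Against XO, 1 of the 8 was called higher in XX oocytes, where 1.4% of all 10993 genes tested were, and 3 were called lower, where 16.7% of all genes were. Against XY, 1 of the 8 was called higher and 0 lower in XX oocytes, beside 1.41% and 4.39% of all genes. Between XY and XO, 0 were called higher and 1 lower in XY oocytes, beside 1.69% and 8.24% of all genes. After Benjamini-Hochberg adjustment over all genes none of the 8 passed 0.05 in any comparison, and by DESeq2, which gave no adjusted p for Slc2a1 where XO was compared, none did either. Of all genes tested, 0 passed this adjustment in edgeR for XX against XO, where counts at an unadjusted p are given above, 9 (0.0819%) for XX against XY and 4 (0.0364%) for XY against XO. These counts depend on the fit. The study corrected for batch with surrogate variables. With 1 such variable, estimated from the same 9 samples, as a covariate, 2821, 1085 and 1448 genes passed in that order. Pdha1 was then among them against XO (adjusted p = 0.0308) and XY (adjusted p = 0.0110), Dlat in all 3 comparisons (adjusted p = 4.88e-05, 0.0401 and 0.0216) and Ldhb between XY and XO (adjusted p = 0.0471). With no filter on low counts, 1607 of 28051 genes passed in edgeR for XX against XO and 783 for XY against XO. Among them were Dlat, Ldhb and Slc2a1 for XX against XO (adjusted p = 0.00171, 0.0139 and 0.0125) and Ldhb for XY against XO (adjusted p = 0.0207). For XX against XO the log2 fold change of Ldhb stayed at -2.12, with a standard error of 0.61 against 1.08 with the filter. That of Pdha1 stayed at 0.72, with a standard error of 0.44 against 0.28. The differences were thus not larger without the filter, and only the estimated spread had changed.

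The comparisons of XX with XO and XY share the XX samples, and those with XO share the XO samples, so that they are not independent of each other. The contrasts are written XX-XO, XX-XY and XY-XO below, the first genotype minus the second. The scaling with spike-ins set the bulk of genes lower in XX oocytes, with a median log2 fold change over all genes tested of -0.46 for XX-XO, -0.19 for XX-XY and -0.30 for XY-XO. With trimmed means (TMM) of the genes themselves it was -0.03, -0.04 and -0.02. With the spike-in total as library size it was 0.42, 0.49 and -0.11.

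**Figure D1:**
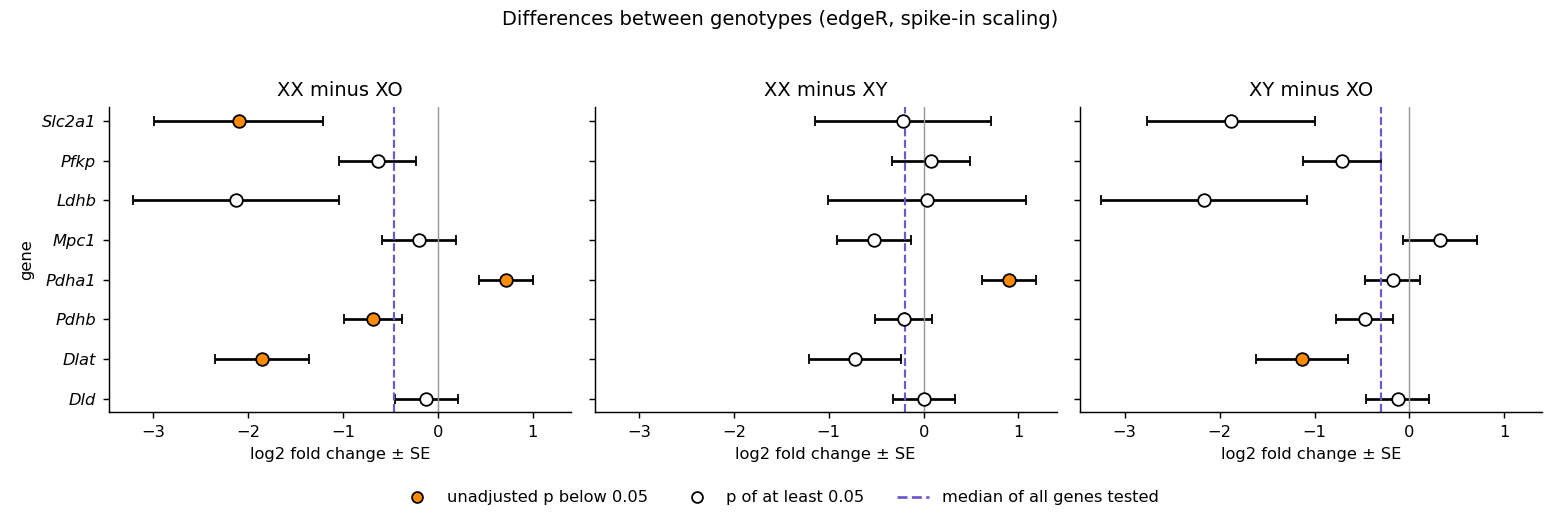
Log2 fold change (x axis, with its standard error as the bar) of the 8 tested genes (y axis) for the contrasts XX-XO, XX-XY and XY-XO. Filled points had an unadjusted p below 0.05 and the dashed line is the median of all genes tested. Pdha1 sits to the right of 0 against both XO (0.72) and XY (0.90), whereas Slc2a1, Ldhb and Dlat sit furthest to the left wherever XO is compared.

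Levels were set in order per kb of merged exons. Over the 9 samples Ldhb was the highest, at 1649 normalized CPM per kb, followed by Dld at 109.5. Mpc1 (9.14), Dlat (8.60) and Pdha1 (6.02 normalized CPM per kb) came next, and their ranges over samples overlapped. Pdhb (2.66), Slc2a1 (1.58), Pfkp (0.62) and Mpc2 (0.34 normalized CPM per kb) were lower. Ldha was the lowest, at 0.021 normalized CPM per kb. Because 5′ UMIs count molecules and do not grow with transcript length, the order was also read without length, where Dlat (42.0) and Pdha1 (22.5) came before Mpc1 (19.0), and Pfkp (8.30) before Slc2a1 (5.53 normalized CPM).

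The 250 bases before the annotated transcription start are shown for Pdha1, the gene that was higher in XX oocytes, for Dlat, Slc2a1 and Ldhb, whose levels were high in the same XO samples, and for Ldha, which was almost without UMIs where Ldhb was abundant. Sequences and starts are from RefSeq on GRCm38.p6, where all 10 genes had an entry and Ldha had 2 starts, of which the first is shown, and are written 5′ to 3′ on the strand of the gene. Capitals mark the GC box (GGGCGG, or CCGCCC on the other strand) and the core of the hypoxia response element (ACGTG, or CACGT on the other strand).
Pdha1 (chrX:160138431-160138680, minus strand): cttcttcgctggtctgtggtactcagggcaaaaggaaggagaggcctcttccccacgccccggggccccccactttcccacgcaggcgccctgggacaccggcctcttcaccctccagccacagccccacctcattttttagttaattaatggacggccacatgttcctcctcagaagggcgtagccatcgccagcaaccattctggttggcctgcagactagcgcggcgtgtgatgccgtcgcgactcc
Dlat (chr9:50659781-50660030, minus strand): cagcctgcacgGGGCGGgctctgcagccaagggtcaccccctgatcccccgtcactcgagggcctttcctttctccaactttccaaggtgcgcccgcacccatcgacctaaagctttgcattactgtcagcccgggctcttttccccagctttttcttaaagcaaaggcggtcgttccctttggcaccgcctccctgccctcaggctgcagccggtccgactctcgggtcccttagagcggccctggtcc
Slc2a1 (chr4:119108495-119108744, plus strand): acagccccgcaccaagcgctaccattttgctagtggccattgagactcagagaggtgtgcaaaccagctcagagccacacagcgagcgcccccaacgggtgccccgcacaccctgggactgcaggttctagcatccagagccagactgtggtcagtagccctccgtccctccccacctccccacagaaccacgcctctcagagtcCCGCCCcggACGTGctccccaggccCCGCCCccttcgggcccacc
Ldhb (chr6:142507958-142508207, minus strand): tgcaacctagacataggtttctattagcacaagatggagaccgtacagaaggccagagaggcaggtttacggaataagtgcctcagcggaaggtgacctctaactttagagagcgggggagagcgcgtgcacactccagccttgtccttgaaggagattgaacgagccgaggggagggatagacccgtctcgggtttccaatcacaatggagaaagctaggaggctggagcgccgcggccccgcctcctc
Ldha (chr7:46845554-46845803, plus strand): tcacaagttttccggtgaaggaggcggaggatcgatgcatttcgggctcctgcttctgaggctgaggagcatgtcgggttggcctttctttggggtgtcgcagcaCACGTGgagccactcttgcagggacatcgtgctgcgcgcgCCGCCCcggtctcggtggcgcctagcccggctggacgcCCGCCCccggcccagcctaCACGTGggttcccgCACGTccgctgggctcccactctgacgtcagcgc

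Among 32851 promoters of the same table, in windows of this length, a GC box on either strand was found in 32.7% and the hypoxia core in 16.6%. The Pdha1 and Ldhb windows held neither of these letter strings. Dlat held 1 GC box, and Slc2a1 held 2 GC boxes and 1 hypoxia core. Ldha held 2 GC boxes and 5 matches to the hypoxia core when both strands were counted, since the palindrome CACGTG, present at 2 places, matches on each strand. The window of its second start held 0 GC boxes, 0 hypoxia cores and 9 CpG dinucleotides. A TATA box (TATAAA, or TTTATA on the other strand), found in 12.4% of all windows, was in none of the 5. CpG dinucleotides numbered 15 in Pdha1 and Dlat, 13 in Slc2a1, 14 in Ldhb and 25 in Ldha, against a median of 6 over all windows. The letters alone do not show that a factor was bound there.

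Pdha1 (ENSMUSG00000031299.10, chrX:160122209-160138413 of GRCm38, minus strand) encodes the catalytic alpha chain of the decarboxylase. Its level was 36.7, 27.7 and 30.2 normalized CPM in XX1, XX2 and XX3. It was 22.3, 18.6 and 16.4 in the 3 XO samples and 17.7, 13.0 and 19.9 in the 3 XY samples. Thus each XX sample was above each XO and each XY sample, which overlapped one another. Of all genes tested, 2.79% were higher in XX than XO without overlap and 4.15% were so against XY, and among the 369 X-linked genes tested 25.5% and 40.4% were. Of these X-linked genes, 18.2% were called higher in XX than in XO oocytes and 24.1% were called higher than in XY oocytes. The log2 fold change of Pdha1 was 0.72 (SE 0.28, adjusted p = 0.242) against XO and 0.90 (SE 0.28, adjusted p = 0.570) against XY oocytes in edgeR, and both were called. For XY-XO it was -0.18 (SE 0.29, adjusted p = 0.818) without a call, and turned to 0.07 with either TMM of genes or the spike-in total. With the same XX samples, folds within replicate numbers were 1.65, 1.49 and 1.84 over XO and 2.08, 2.12 and 1.51 over XY oocytes. XX samples were not taken as paired by these numbers. Without XO1 the log2 fold change for XX-XO was 0.90 and was called. The call against XO was lost without XO2 (0.70) or XO3 (0.62) and with no filter on low counts (0.72), and the call against XY was lost without XY2 (0.73).

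X-linked genes as a whole were higher in XX oocytes, with a median log2 fold change of 0.31 against XO and 0.56 against XY oocytes. Of 369 X-linked genes tested, 86 had a larger log2 fold change than Pdha1 against XO and 79 against XY, so that Pdha1 was above the X-linked median but not among the extremes. Over the 9 samples the tested genes with levels most like Pdha1 were Sox2ot, on chromosome 3 (Pearson's r = 0.938 of log2(normalized CPM + 1)), and the X-linked genes Gm14553 (0.938), 9530051G07Rik (0.932), Gk (0.928) and Gm14974 (0.915). These coefficients describe 9 samples in which the 3 XX samples are high for each gene. Map3k15 overlaps Pdha1 on the opposite strand and had 244 UMIs in all, against 533 for Pdha1. The authors aligned in stranded mode, and the part of Map3k15 in the Pdha1 counts was not tested.

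**Figure D2:**
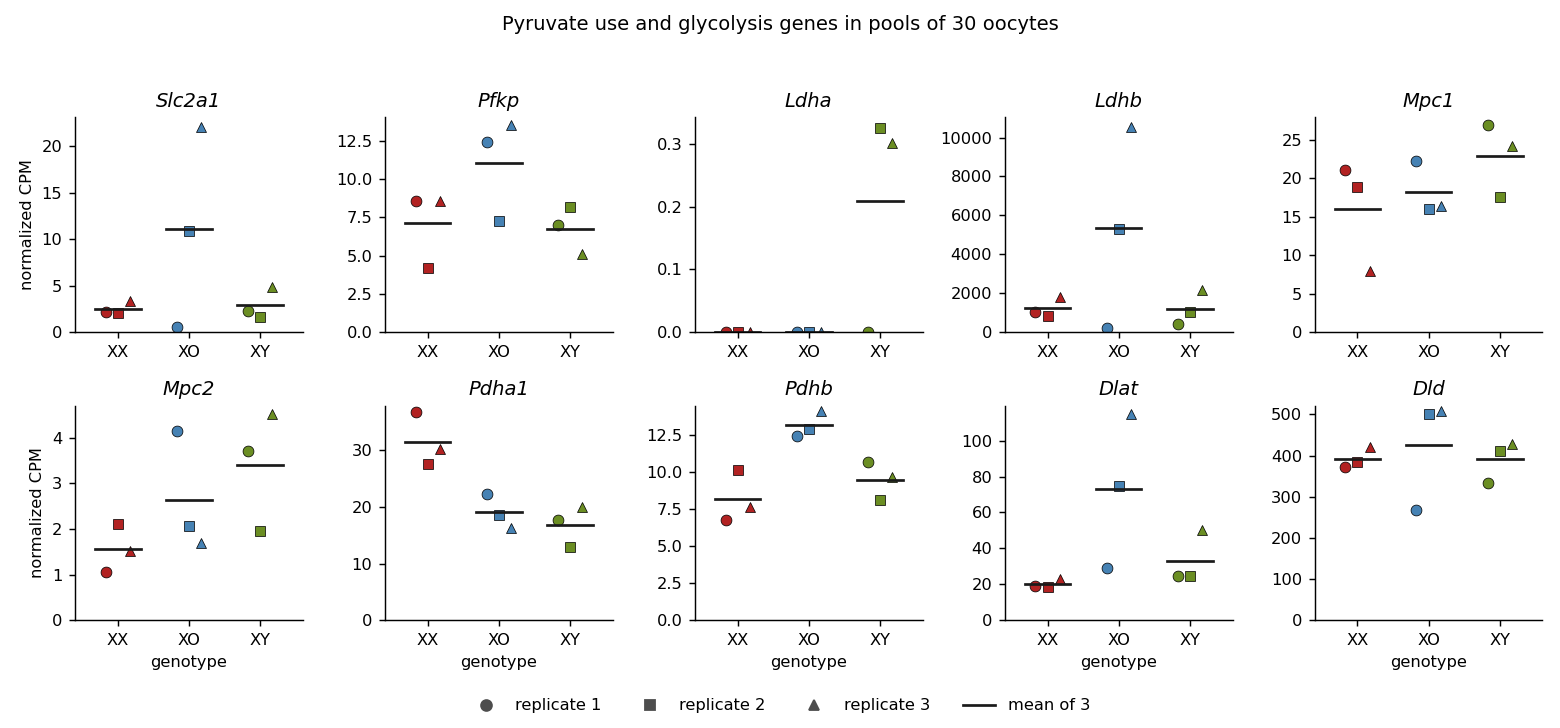
Level in normalized CPM (y axis, from 0 in each panel) of each of the 10 genes in the 3 samples of XX, XO and XY oocytes (x axis). Symbols are samples by replicate number and bars are means of 3. For Pdha1 the XX samples (27.7 to 36.7) lie above all others (13.0 to 22.3), whereas Ldhb, Slc2a1 and Dlat are highest in XO2 and XO3.

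Pdhb, which encodes the autosomal partner chain of Pdha1 (chromosome 14), had 19 to 32 UMIs per sample. XX samples were at 6.77, 10.2 and 7.62 normalized CPM, XO samples at 12.4, 12.9 and 14.1, and XY samples at 10.7, 8.14 and 9.66. XO samples were thus above all XX and all XY samples, although by small margins. Without overlap, 13.6% of all genes tested lay below XO in XX oocytes and 6.34% did in XY oocytes, while 3.88% lay above XO in XY oocytes, among them 0 of the 8. For XX-XO the log2 fold change was -0.68 (SE 0.30, adjusted p = 0.274), which was called and lies -0.22 from the median of all genes. The call was lost with TMM of genes (-0.23), DESeq2 (-0.35), replicate number as a block (-0.69) or no filter (-0.68), and the direction turned with the spike-in total (0.13), and of 9 fits that left out a sample the call was kept in 1, that without XX2. Without XO1 it was -0.67. The log2 fold changes of -0.21 for XX-XY (SE 0.30, adjusted p = 1.00) and -0.47 for XY-XO (SE 0.30, adjusted p = 0.582) were not called.

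The balance of both decarboxylase chains was examined within samples, where no scaling enters. The ratio of Pdha1 to Pdhb UMIs was 5.42, 2.72 and 3.96 in XX samples. It was 1.79, 1.44 and 1.16 in XO samples and 1.65, 1.60 and 2.06 in XY samples. The lowest XX sample was thus above the highest of the other 6. On the log2 scale with 0.5 UMIs added, the ratio had a mean of 1.93 ± 0.49 for XX, 0.52 ± 0.31 for XO and 0.80 ± 0.20 (SD, n = 3 each) for XY oocytes. XX oocytes exceeded XO and XY oocytes together by 1.27 (exact permutation test, two-sided, p = 0.0119, 0.0476 adjusted over 4 ratios), and 0.0119 is the smallest p that 84 splits can give. Within replicate numbers the p was 0.0370, the smallest that such an exact test can give, and 0.148 when adjusted over the 4 ratios, so that the adjusted value no longer passed. The levels of Pdha1 by genotype were known when the ratio was chosen, so this is no independent support of them. Ratios of Dlat to Pdhb (-0.68, p = 0.226, adjusted 0.452) and of Mpc1 to Mpc2 (0.40, p = 0.417, adjusted 0.556) did not pass the exact permutation test. Neither did that of Ldha to Ldhb (exact permutation p = 0.702), which rested on 2 UMIs of Ldha.

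**Figure D3:**
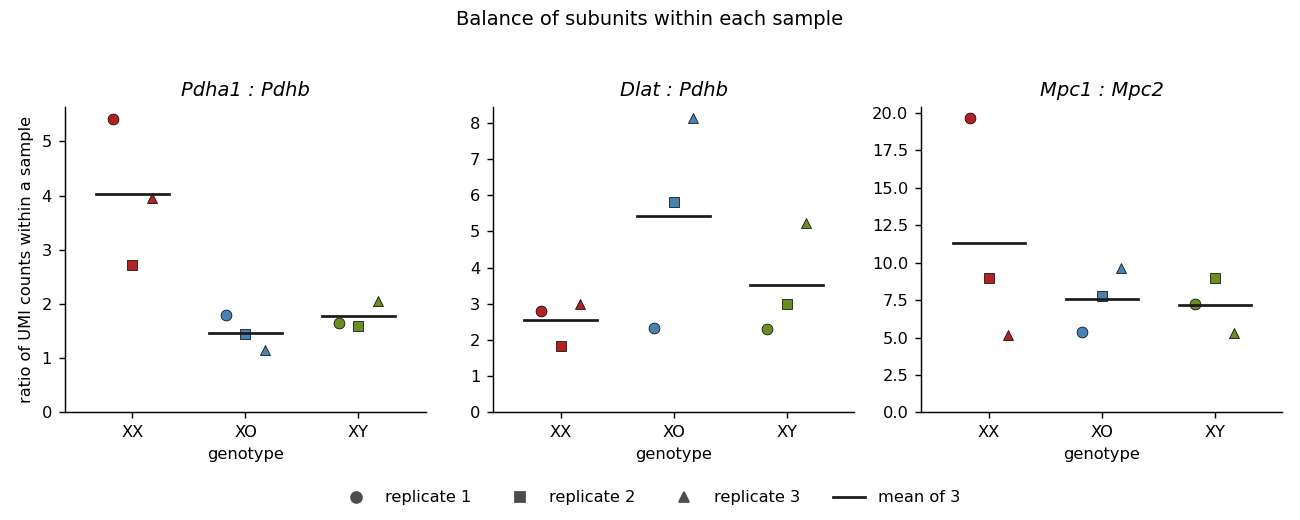
Ratio of UMI counts within a sample (y axis, from 0) for Pdha1 to Pdhb, Dlat to Pdhb and Mpc1 to Mpc2, in XX, XO and XY oocytes (x axis). Symbols are samples by replicate number and bars are means of 3. For Pdha1 to Pdhb the XX samples (2.72 to 5.42) do not overlap the others (1.16 to 2.06), and for the other pairs the genotypes overlap.

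Dlat, the acetyltransferase core of the complex (chromosome 9), was at 18.9, 18.6 and 22.8 normalized CPM in XX samples. In XO samples it was at 29.0, 75.0 and 115, and in XY samples at 24.6, 24.4 and 50.4. All XX samples were below all XO and all XY samples, and the XO samples differed 3.95-fold among themselves. Against XY, 11.7% of all genes tested were lower in XX oocytes in this way. The log2 fold change was -1.85 (SE 0.50, adjusted p = 0.203) for XX-XO and -1.13 (SE 0.49, adjusted p = 0.499) for XY-XO, and both were called. For XX-XY it was -0.72 (SE 0.49, adjusted p = 1.00), which was not called. Without XO1 the 3 values were -2.20, -1.43 and -0.76, and all were called. With the spike-in total as library size the calls for XX-XO (-0.99) and XY-XO (-0.86) were lost, and with TMM of genes the latter was (-0.79). The call for XY-XO was also lost without XX1, XX2, XX3, XO2, XO3, XY1 or XY2, at -0.64 without XO3.

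Dld encodes the lipoamide dehydrogenase that the complex shares with other 2-oxoacid dehydrogenases, and its levels were close between genotypes. The means were 392 ± 25.2 for XX, 426 ± 137 for XO and 391 ± 50.0 (SD, n = 3 each) normalized CPM for XY oocytes, and XO1 was the lowest sample at 269. The log2 fold changes were -0.12 for XX-XO (adjusted p = 0.859), 0.0031 for XX-XY (adjusted p = 1.00) and -0.12 for XY-XO (adjusted p = 0.896), each with an SE of 0.33, and none was called. TMM of genes turned the first to 0.35 and the last to 0.20. Relative to the median of all genes the XX values were 0.34 above it against XO and 0.19 above it against XY oocytes.

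Ldhb, the heart-type subunit of lactate dehydrogenase (chromosome 6), was the most abundant of the 10 genes and the most variable among XO samples. XX samples were at 1046, 829 and 1803 normalized CPM and XY samples at 421, 1018 and 2147. In XO samples it was 210.2, 5311 and 10517, which is a 50.0-fold range. XO1 was thus the lowest and XO3 the highest of all 9 samples, and XO overlapped both other genotypes. The log2 fold changes of -2.12 for XX-XO (SE 1.08, adjusted p = 0.316) and -2.16 for XY-XO (SE 1.08, adjusted p = 0.521) were not called. Without XO1 they were -2.67 and -2.65, and both were called. Without XO3 they were -1.17 and -1.21, and neither was called. With replicate number as a block they were -1.33 and -1.81, and neither was called. With the surrogate variable they were smaller, at -0.37 and -0.52, but both were called. Both were also called with no filter on low counts (-2.12 and -2.16), and with DESeq2 only XY-XO was (-1.91). For XX-XY the log2 fold change was 0.04 (SE 1.04, adjusted p = 1.00), without a call.

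Of the 12 oocyte markers, Zp1 (log2 fold change -3.81), Nobox (-2.85), Ooep (-2.21) and Gdf9 (-2.11) were called lower for XX-XO. Of all genes tested, 16.7% were. The other markers were not called for XX-XO. The level of Ldhb was set beside those of the 12 markers. Pearson's r over the 9 samples, on the scale of log2(normalized CPM + 1), was highest with Zp3 (0.99), Kit (0.98) and Zp1 (0.98). It was lower with Zp2 (0.68) and Bmp15 (0.49) and negative with Oosp1 (-0.86), so that oocyte genes did not all move with Ldhb. When XO2 and XO3 were left out, r was still 0.99 with Zp3 and fell to 0.18 with Gdf9, from 0.81. Among the 10 genes, r of Ldhb was 0.96 with Dld, and 0.97 without XO1 and XO3, the samples farthest from the median of Dld. With Slc2a1 it was 0.95, and 0.87 without XO2 and XO3, the samples farthest from the median of Ldhb. With Dlat it was 0.78, and 0.20 without XO2 and XO3, so that it rested on these samples. With Pdha1 it was -0.21. These values are descriptions, since samples share their library, depth and genotype with every gene, and the part of oocyte maturity or RNA quality in them was not tested.

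Ldha, the muscle-type subunit (chromosome 7), had 2 UMIs in all 9 samples, 1 each in XY2 and XY3. A count of 0 over 3 samples allows up to 3 UMIs, or 0.335 normalized CPM in XX and 0.532 in XO oocytes, which covers counting error alone. Its pseudogene Ldha-ps2 had 1 UMI. By contrast Ldhc, the isoform best known from testis and not among the 10 genes, had 542, 473 and 395 normalized CPM in the XX samples. The XO samples had 266, 291 and 348 and the XY samples 498, 485 and 444. Ldhc was lower in each XO sample than in each XX and XY sample. It was called for XY-XO (log2 fold change 0.66, SE 0.29, adjusted p = 0.501) and not called for XX-XO (0.64, SE 0.29, adjusted p = 0.277). The difference between these contrasts is XX-XY, at -0.02 (SE 0.29, adjusted p = 1.00). Whether Ldhc was called depended on the fit. For XX-XO Ldhc was called with TMM of genes (1.09), the replicate block (0.63), the surrogate variable (0.66) and DESeq2 (0.97, adjusted p = 0.00534), and for XY-XO it was not called with the spike-in total (0.78), with no filter (0.66) or without XO1 (0.64).

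As a share of the UMIs of the 3 genes, Ldhb took 65.9%, 63.7% and 82.0% in XX samples and 45.8%, 67.7% and 82.8% in XY samples. In XO samples it took 44.2% (exact 95% binomial interval 40.9 to 47.5), 94.8% (94.4 to 95.2) and 96.8% (96.5 to 97.0), intervals that cover counting error alone. Nearly all of the remainder was Ldhc. The lowest share of Ldhb was thus found in XO1 and XY1 and the highest in XO2 and XO3, and genotypes overlapped.

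**Figure D4:**
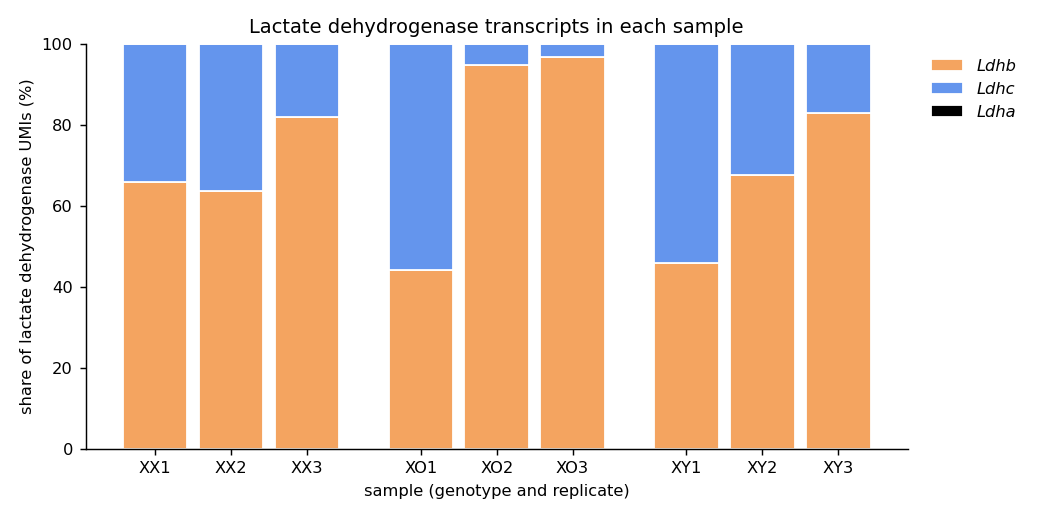
Share of lactate dehydrogenase UMIs in percent (y axis, 0 to 100) taken by Ldhb, Ldhc and Ldha in each of the 9 samples (x axis, genotype and replicate number). Ldhb ranges from 44.2% in XO1 to 96.8% in XO3, Ldhc takes the rest, and Ldha, with 2 UMIs in all, is too small to be seen.

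Slc2a1, the glucose carrier of many cell types (chromosome 4), had 1 to 39 UMIs per sample and followed the order of XO samples seen for Ldhb. XX samples were at 2.14, 2.10 and 3.35 normalized CPM, XO samples at 0.52, 10.9 and 22.0, and XY samples at 2.32, 1.63 and 4.83. XO1, with 1 UMI, was below all other samples and XO2 and XO3 were above them. XX3, XO3 and XY3 were the highest samples of their genotypes for Slc2a1, as they were for Ldhb and Dlat. The order was thus not confined to XO samples, and its cause was not tested. For XX-XO the log2 fold change was -2.10 (SE 0.89, adjusted p = 0.264) and was called, and for XY-XO it was -1.88 (SE 0.88, adjusted p = 0.510) and was not. With replicate number as a block the latter was -1.75 and was called. Without XO1 the values were -2.63 and -2.37, and both were called. In each of the other 8 fits that left out a sample the call for XX-XO was lost, with the smallest size without XO3 (-1.15), and it was also lost with TMM of genes (-1.56), the spike-in total (-1.29), DESeq2 (-1.67) or the surrogate variable (-0.90). For XX-XY the log2 fold change was -0.22 (SE 0.93, adjusted p = 1.00), without a call, and it turned to 0.40 with the spike-in total.

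Pfkp (chromosome 13), which acts after glucose has been phosphorylated, was at 8.55, 4.20 and 8.53 normalized CPM in XX samples. XO samples were at 12.4, 7.24 and 13.5 and XY samples at 6.97, 8.14 and 5.13, so that all genotypes overlapped. Its log2 fold changes were -0.63 for XX-XO (adjusted p = 0.402), 0.08 for XX-XY (adjusted p = 1.00) and -0.71 for XY-XO (adjusted p = 0.549), each with an SE of 0.41, and none was called. With the spike-in total the first turned to 0.41. Pitrm1 overlaps Pfkp on the opposite strand, with 802 UMIs against 183 for Pfkp.

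The subunits of the mitochondrial pyruvate carrier differed in abundance. Mpc1 (chromosome 17) was at 21.0, 18.9 and 7.92 normalized CPM in XX samples, at 22.3, 16.0 and 16.4 in XO samples and at 27.0, 17.6 and 24.1 in XY samples. XX3 was the lowest sample and the genotypes overlapped. Its log2 fold changes of -0.20 for XX-XO (adjusted p = 0.799), -0.52 for XX-XY (adjusted p = 1.00) and 0.33 for XY-XO (adjusted p = 0.757), each with an SE of 0.39, were not called, and the first turned to 0.21 with TMM of genes. Mpc2 (chromosome 1) had 3 to 15 UMIs per sample and means of 1.56 ± 0.52 for XX, 2.63 ± 1.32 for XO and 3.40 ± 1.32 (SD, n = 3 each) normalized CPM for XY oocytes. These 3 genotypes overlapped, and Mpc2 was below the filter of the test. Mpc1-ps, a pseudogene of Mpc1, had 7 UMIs in all, against 434 for Mpc1.

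The rest of the pathway was examined through 78 further genes in 7 lists, of which 65 had a row and 45 were tested. Against XO, 0 were called higher and 15 lower in XX oocytes, which is 33.3% of those tested, where 16.7% of all genes were called lower. That count was 6 with TMM of genes, 0 with the spike-in total, 22 without XO1 and 2 without XX1 or XO3. Without XO1 the calls rose over all genes too, since 2389 of 10993 passed an adjusted p of 0.05 for XX-XO, where 0 did with all samples. The median log2 fold change of the 45 genes was -0.66, beside -0.46 for all genes tested and -0.66 for the 8 genes above. For XX-XY 0 of the 45 were called in edgeR and also in DESeq2, and the median was -0.17. Between XY and XO 1 was called higher and 9 lower in XY oocytes (20.0% of those tested), with a median of -0.61. Of all genes 1.69% were called higher and 8.24% lower, with a median of -0.30. With replicate number as a block 14 of the 45 were lower, and without XO1 and XO3 in turn 20 and 2 were. Without XO1, 947 of all genes passed the adjustment for XY-XO, where 4 did with all samples.

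By list, 4 of 7 tested glycolysis enzymes and 7 of 14 tested genes of the tricarboxylic acid cycle were called lower in XX than in XO oocytes. In the other lists 1 of 9 regulators of phosphofructokinase and pyruvate dehydrogenase, 1 of 4 other pyruvate and lactate enzymes, 1 of 3 pentose phosphate genes, 1 of 5 malate-aspartate shuttle genes and 0 of 3 transporters were. These lists are small, and no test compared them with each other. Gapdh, which encodes the glyceraldehyde phosphate dehydrogenase, was at 2.49, 2.80 and 6.70 normalized CPM in XX samples, at 1.55, 34.6 and 167 in XO samples and at 1.39, 13.4 and 15.4 in XY samples. Its log2 fold change was -4.05 (SE 1.31, adjusted p = 0.203) for XX-XO and -2.72 (SE 1.21, adjusted p = 0.501) for XY-XO, and both were called. Tpi1, the triose phosphate isomerase, had 2.07, 66.7 and 159.8 normalized CPM in the XO samples and between 4.65 and 13.6 in the other 6 samples. XO1 was thus the lowest sample for Tpi1 and the second lowest for Gapdh, while XO2 and XO3 were the highest. Tpi1 was called at -3.27 (SE 1.04, adjusted p = 0.203) for XX-XO and at -3.09 (SE 1.03, adjusted p = 0.485) for XY-XO. Pkm, the pyruvate kinase that forms pyruvate, was called for XY-XO (-2.72, SE 1.19, adjusted p = 0.501). These calls were lost without XO3, where Gapdh was at -2.15 for XX-XO and -0.82 for XY-XO, Tpi1 at -2.12 and -1.94, and Pkm at -1.53 for XY-XO. With the spike-in total, Tpi1 for XY-XO (-2.85) was the only one of them still called. Without XO1 all of them were called, with Gapdh at -4.61 and -3.21, Tpi1 at -3.81 and -3.58 and Pkm at -3.19. Without XX1 the XX-XO calls of Gapdh (-3.69) and Tpi1 (-3.07) were lost. The XY-XO calls of Gapdh and Pkm were lost without XX1, XX2 or XX3 and with TMM of genes (-2.25 and -2.32). That of Gapdh was also lost with the surrogate variable (-0.83). Sdhd, a membrane subunit of succinate dehydrogenase, was at 9.26, 9.80 and 11.3 in XX and 14.0, 65.7 and 147 normalized CPM in XO samples, without overlap (log2 fold change -2.89, SE 0.70, adjusted p = 0.203). It was called without XO1 (-3.36) and without XO3 (-1.97), but not with the spike-in total (-2.08).

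**Figure D5:**
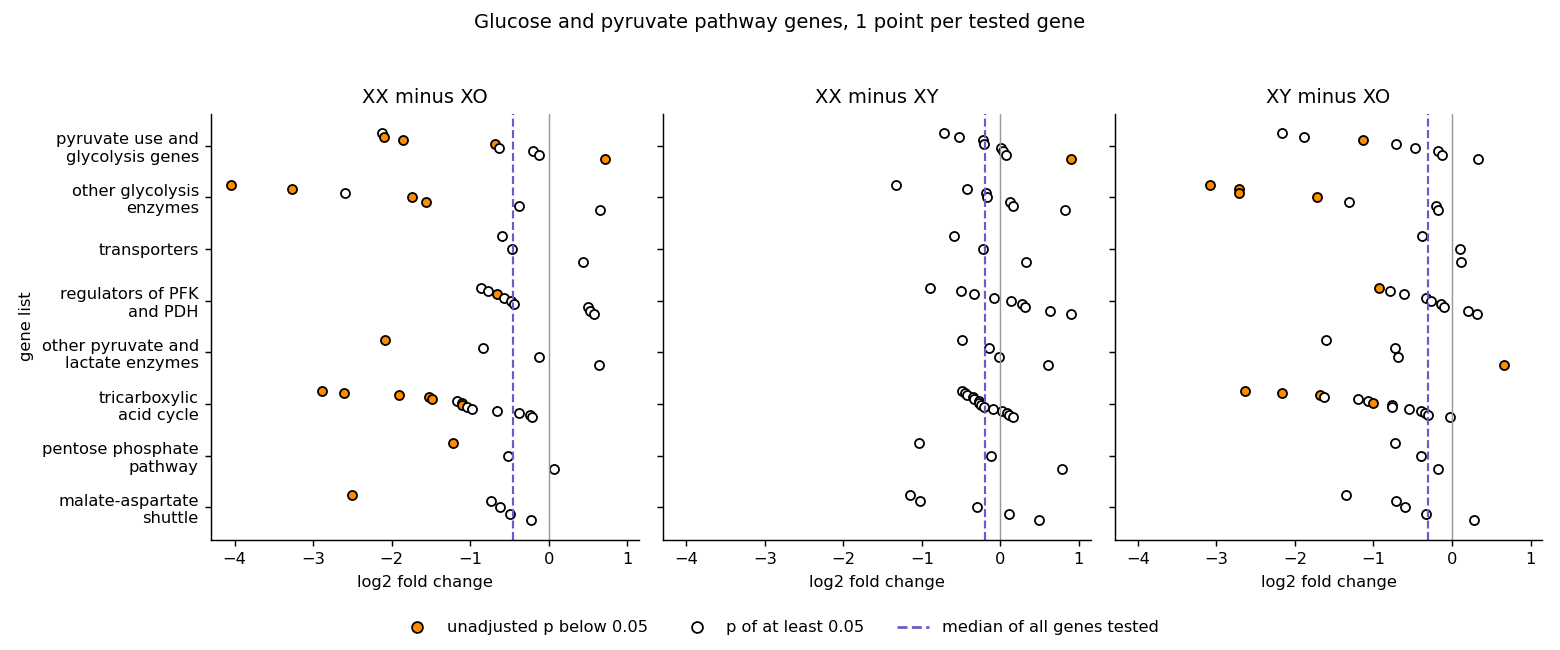
Log2 fold change (x axis) of each tested gene, by list (y axis), for the contrasts XX-XO, XX-XY and XY-XO. Filled points had an unadjusted p below 0.05 and the dashed line is the median of all genes tested. Called genes lie to the left of 0 where XO is compared, apart from Pdha1 against XO and Ldhc between XY and XO, and Pdha1 is the only called gene for XX-XY.

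The other 5 tested X-linked genes of the lists were set beside Pdha1. Pgk1, the phosphoglycerate kinase, was at 108, 99.1 and 129 normalized CPM in XX samples, at 10.9, 101 and 103 in XO samples and at 31.6, 64.5 and 93.6 in XY samples. XX samples were above all XY samples, as for 40.4% of the X-linked genes tested, and in XO only XO1 was far below. Its log2 fold changes of 0.65 (SE 0.68, adjusted p = 0.610) against XO and 0.82 (SE 0.68, adjusted p = 1.00) against XY oocytes were not called, and without XO1 the former was 0.18, where that of Pdha1 was 0.90. Pfkfb1, which encodes a bifunctional enzyme that sets the level of the phosphofructokinase activator fructose 2,6-bisphosphate, was at 18.5, 22.4 and 26.5 normalized CPM in XX samples, at 4.66, 19.6 and 20.9 in XO samples and at 3.25, 15.6 and 16.6 in XY samples. XX samples were above all XY samples here too, and XO1 and XY1 were the lowest. Its log2 fold changes of 0.58 (SE 0.62, adjusted p = 0.616) and 0.90 (SE 0.62, adjusted p = 1.00) were not called. Pdk3, which encodes a kinase that inhibits pyruvate dehydrogenase, had 0.50 (SE 0.35, adjusted p = 0.445) and 0.63 (SE 0.35, adjusted p = 0.978), again without a call. Against XO it was called with TMM of genes (0.90) and without XO1 (0.89), and against XY with the replicate block (0.65), with the surrogate variable (0.66) and without XX3 (0.78). For G6pdx, the entry enzyme of the pentose phosphate pathway, the values were 0.06 (SE 0.85) and 0.78 (SE 0.85), and neither was called (adjusted p = 0.975 and 1.00). Idh3g, a regulatory subunit of isocitrate dehydrogenase, was called lower for XX-XO (-1.49, SE 0.60, adjusted p = 0.250) and not called for XX-XY (-0.42, SE 0.60, adjusted p = 1.00). The call for XX-XO was lost without XO3 (-0.79), XX1 (-1.76), XX2 (-1.29) or XX3 (-1.35). It was also lost with TMM of genes (-0.99), the spike-in total (-0.79), DESeq2 (-1.10) or the replicate block (-1.30). Of these 6 genes Pdha1 was thus the only one called higher in XX oocytes in the edgeR fit of all 9 samples with the spike-in scaling and no covariate. In that fit 18.2% of the 369 X-linked genes tested were called higher in XX oocytes against XO and 24.1% against XY. With the surrogate variable Pdha1 was no longer the only one. Pgk1 then had 1.499 against XO and 0.90 against XY (adjusted p = 6.57e-06 and 0.00111 in edgeR), G6pdx 1.17 and 0.90 (adjusted p = 5.83e-06 and 0.000193) and Pfkfb1 1.16 and 0.96 (adjusted p = 0.00773 and 0.0237).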

How the data were processed

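RNA of 9 pools of 30 oocytes, 3 each from XX, XO and XY ovaries, was sequenced with Smart-seq3. The authors aligned reads with HISAT2 in stranded mode to GRCm38 (version not given in the sources used here) and deposited whole-number counts of 5′ UMIs per gene, together with 79 ERCC spike-ins. The deposited normalized values (normalized CPM, a signal scaled with spike-ins) were used for levels, and a further deposited matrix, log2 values that the authors had corrected for batch, gave only gene coordinates. Columns of XO were numbered 2, 3 and not at all, and the last was assigned to XO1. This number bears on the pairing, not on which library was left out. Labels name the pools as separate samples without tying them to animals, so that p-values measure the spread between these pools.

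Counts were fitted in edgeR 4.0.16 (R 4.3.3) with the authors' spike-in factors, 1 mean per genotype, filterByExpr, and glmQLFit with glmQLFTest over 10993 genes, with Benjamini-Hochberg adjustment over all of them. The fit was run on simulated counts, drawn independently with 1 dispersion for all genes, where smaller changes were called less often than larger ones. Shifts shared by many genes of a sample were not simulated, so that calls under such shifts were not tested. The study fitted limma with batch covariates. Alternatives were TMM of genes, the spike-in total as library size, DESeq2 1.42.0, no filter on low counts, replicate number as a block, 1 surrogate variable (sva 3.50.0) and fits without each sample. Exact permutation tests of ratios used scipy 1.17.1. Promoter windows were matched to RefSeq by gene symbol.

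Named were the 10 genes, 4 X-linked genes of the other lists, for each contrast at most the 3 highest and 3 lowest called genes of those lists whose normalized CPM averaged 10 or more, and the 5 tested genes most correlated with Pdha1. Pfkfb1 was added, and the oocyte markers that are named with Ldhb were chosen, after their values were seen. The genes and lists were chosen with earlier results of these data known. The pairing of replicate numbers was checked on deviations from genotype means. Same-numbered XO and XY samples deviated together (r = 0.830, 0.278 and 0.773) and were taken as paired, from these values alone. XO2 deviated more with XY3 (r = 0.721) than with XY2, so that the values do not settle the pairing by number. XX1 and XX3 deviated together with XO1 and XO3 (r = 0.468 and 0.679) and with XY1 and XY3 (r = 0.435 and 0.726). XX2 did not with XO2 (r = -0.447) or XY2 (r = -0.060), and XX samples were not taken as paired. Folds, blocks and the permutation test within replicate numbers still use the numbers of XX samples and are alternatives only.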

Additional observations from a re-analysis of the deposited data

How the results depend on the processing

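Pdha1 kept its direction in XX-XO and XX-XY under every alternative and in all 9 fits without 1 sample, and Dlat and Slc2a1 did so in XX-XO and XY-XO. Counts below are followed by the contrast, the direction and the count of the fit as reported. They are not set beside the share of all genes called in the same alternative fit. How many of all genes passed the adjustment for XX-XO also differed between fits. It was 0 in the fit as reported, 2 with TMM of genes, 0 with the spike-in total and 7 with the replicate block. It was 178 with DESeq2, 1607 of 28051 with no filter on low counts and 2821 with the surrogate variable. A change in the counts below is therefore not read as a result about these genes. Of the 10 genes, 1 (XX-XO lower, against 3) and 0 (XY-XO lower, against 1) were called with TMM of genes. Of the 10 genes, 0 (XX-XO lower, against 3) and 0 (XY-XO lower, against 1) were called with the spike-in total. Of the 10 genes, 0 (XX-XO higher, against 1) and 3 (XY-XO lower, against 1) were called with no filter on low counts. Of the 10 genes, 2 (XY-XO lower, against 1) were called with replicate number as a block. Of the 10 genes, 1 (XX-XY lower, against 0) and 2 (XY-XO lower, against 1) were called with the surrogate variable. Of the 10 genes, 1 (XX-XO lower, against 3) and 2 (XY-XO lower, against 1) were called with DESeq2. Of the other pathway genes, 3 (XX-XO higher, against 0), 6 (XX-XO lower, against 15) and 5 (XY-XO lower, against 9) were called with TMM of genes. Of the other pathway genes, 0 (XX-XO lower, against 15), 0 (XY-XO higher, against 1) and 2 (XY-XO lower, against 9) were called with the spike-in total. Of the other pathway genes, 23 (XX-XO lower, against 15), 1 (XX-XY higher, against 0), 2 (XX-XY lower, against 0), 0 (XY-XO higher, against 1) and 20 (XY-XO lower, against 9) were called with no filter on low counts. Of the other pathway genes, 1 (XX-XO higher, against 0), 2 (XX-XY higher, against 0), 3 (XX-XY lower, against 0) and 14 (XY-XO lower, against 9) were called with replicate number as a block. Of the other pathway genes, 7 (XX-XO higher, against 0), 5 (XX-XY higher, against 0), 5 (XX-XY lower, against 0), 5 (XY-XO higher, against 1) and 14 (XY-XO lower, against 9) were called with the surrogate variable. Of the other pathway genes, 2 (XX-XO higher, against 0) and 9 (XX-XO lower, against 15) were called with DESeq2. Turned in direction with TMM of genes were Mpc1 XX-XO (0.21), Pdha1 XY-XO (0.073), Dld XX-XO (0.35), Dld XY-XO (0.20), Ldhc XX-XY (0.12), Pdk3 XY-XO (0.10), Pfkfb1 XY-XO (0.035) and Pgk1 XY-XO (0.19). Turned in direction with the spike-in total were Mpc1 XX-XO (0.45), Pdha1 XY-XO (0.073), Pdhb XX-XO (0.13), Pdhb XX-XY (0.46), Dld XX-XO (0.74), Dld XY-XO (0.015), Slc2a1 XX-XY (0.40), Pfkp XX-XO (0.41), Idh3g XX-XY (0.10), Ldhc XX-XY (0.66), Pdk3 XY-XO (0.065), Pgk1 XY-XO (0.039), Sdhd XX-XY (0.42) and Tpi1 XX-XY (0.42). Turned in direction with replicate number as a block was Tpi1 XX-XY (0.052). Turned in direction with the surrogate variable were Dld XX-XO (0.041), Dld XX-XY (-0.0081), Dld XY-XO (0.049), G6pdx XY-XO (0.27), Pfkfb1 XY-XO (0.20), Pgk1 XY-XO (0.60) and Tpi1 XX-XY (0.0092). Turned in direction with DESeq2 were Mpc1 XX-XO (0.090), Dld XX-XO (0.24), Dld XY-XO (0.075), Ldhc XX-XY (0.13), Pgk1 XY-XO (0.060) and Tpi1 XX-XY (0.030). Without 1 sample each, counts for the 10 genes ranged from 0 to 1 (XX-XO higher), from 1 to 3 (XX-XO lower), from 0 to 1 (XX-XY higher), from 0 to 1 (XX-XY lower) and from 0 to 3 (XY-XO lower). Without 1 sample each, counts for the other pathway genes ranged from 0 to 1 (XX-XO higher), from 2 to 22 (XX-XO lower), from 0 to 1 (XX-XY higher), from 0 to 2 (XX-XY lower), from 0 to 1 (XY-XO higher) and from 2 to 20 (XY-XO lower). In the same fits the log2 fold changes that turned ranged from -0.34 to 0.21 (Mpc1 XX-XO), from -0.28 to 0.078 (Pdha1 XY-XO), from -0.32 to 0.045 (Dld XX-XO), from -0.098 to 0.11 (Dld XX-XY), from -0.29 to 0.024 (Dld XY-XO), from -0.41 to 0.78 (Ldhb XX-XY), from -0.54 to 0.39 (Slc2a1 XX-XY), from -0.098 to 0.34 (Pfkp XX-XY), from -0.43 to 0.55 (G6pdx XX-XO), from -0.066 to 0.079 (Ldhc XX-XY), from -0.36 to 0.27 (Pdk3 XY-XO), from -0.65 to 0.1 (Pfkfb1 XY-XO), from -0.59 to 0.18 (Pgk1 XY-XO), from -0.93 to 1.34 (Pkm XX-XY), from -0.52 to 0.0073 (Sdhd XX-XY) and from -0.46 to 0.29 (Tpi1 XX-XY). The log2 ratio of Mpc1 to Mpc2 ranged from -0.076 to 0.83. The log2 ratio of Pdha1 to Pdhb in replicate blocks, that is within replicate numbers, was 1.27 (exact permutation p = 0.0370), the smallest p that this test can give, and 0.148 when adjusted over the 4 ratios. Without 1 sample the adjusted value was 0.0714 or 0.143, since the smallest unadjusted p was then 0.0179 or 0.0357 in the exact test. Causes of these changes were not tested. UMIs limit what Slc2a1, Mpc2, Pdhb and Ldha can show, since each had at most 39 in any sample, and the scaling with spike-ins rests on few spike-in UMIs (0.204% to 0.862% of a library). The number of pools, 3 per genotype, limits all comparisons.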
